A study of Sus scrofa with 20 samples.

Results

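The genes of glycosaminoglycan synthesis were examined in ileum mucosa of pigs differing in feed efficiency. A gene was included when its platform symbol belonged to the families XYLT, CHST, CSGALNACT, CHSY, CHPF, B3GAT, HS3ST, HS6ST, NDST or EXTL, or was a named kinase, epimerase, polymerase, sulfotransferase or hyaluronan synthase of the pathway, and each gene was represented by its probeset with the highest mean. The rule itself used names and mean levels, but it was chosen with earlier results of these data known. The study had named chondroitin and dermatan biosynthesis among the prominent pathways of its RFI contrast in ileum. The choice is thus not independent of the RFI comparison. The rule gave 32 genes of 10638 genes with values. Of the 44 genes of the array that met the name rule, 12 had no values and are not analysed here, among them XYLT1, CHSY1, EXT2, NDST2 and HAS2.

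Residual feed intake (RFI) is the feed a pig eats beyond what its weight, growth and fatness predict, so that low RFI means high feed efficiency. Mucosa was scraped from the ileum of 10 low RFI and 10 high RFI Large White x Landrace pigs of about 4 months of age, which ate freely, and each sample was hybridized to 1 snowball array. The 5 sows 1406, 1410, 1411, 1417 and 1435 each contributed a low RFI and a high RFI male and a low RFI and a high RFI female, so that the pigs form 10 pairs of the same litter and sex. The pigs were chosen as the most divergent within litter and sex, and the litter was also the pen, so that sow and pen cannot be told apart. All values are log2 values after robust multichip averaging (RMA), in which a difference of 1 is a doubling of the signal, and they are compared between pigs within a probeset, never between genes.

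Glycosaminoglycans are long sugar chains of the cell surface and the extracellular matrix. Chondroitin, dermatan and heparan sulfate grow on core proteins from a common linkage region that starts with xylose on a serine. The next sugar commits the chain: N-acetylgalactosamine opens a chondroitin chain and N-acetylglucosamine a heparan chain. Epimerases and sulfotransferases then edit the chain in the Golgi, whereas hyaluronan is made without a core protein at the plasma membrane. In the gut these chains occur in the basement membrane, on the epithelial surface and in the stroma of the lamina propria.

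Array medians ranged from 4.98 to 5.07 over the 20 arrays, with correlations of 0.948 to 0.974 between them. The epithelial markers VIL1, KRT8 and KRT20 averaged 12.15, 11.49 and 12.40 in low RFI pigs and 12.11, 11.50 and 12.40 in high RFI pigs. These levels lay far above the array medians. The 7 markers of fibroblasts and matrix, LUM and DCN included, had a mean level of 5.91 in low RFI and 5.90 in high RFI pigs. Among them COL1A1 averaged only 3.41 over all pigs. Signal levels of different probesets do not give the share of a cell type. Within a bulk sample, fewer cells of a type and less RNA per cell cannot be told apart.

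After probesets of low mean or high standard deviation (SD) were left out, 30 of the 32 genes were tested. HS2ST1 and HS3ST1, a 2-O- and a 3-O-sulfotransferase of heparan sulfate, were left out for their SD. HS2ST1 averaged 3.52 in low RFI pigs (range 2.44 to 4.45) and 3.69 in high RFI pigs (1.99 to 5.14). HS3ST1 averaged 3.97 ± 0.96 in low RFI pigs and 4.25 ± 0.74 in high RFI pigs (SD, n = 10 each). Without the filter, limma gave p = 0.683 and p = 0.461 for these genes.

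Between the RFI groups, 2 of the 30 genes were lower in low RFI pigs at an unadjusted limma p under 0.05 and none was higher. They were CSGALNACT1, which adds the first N-acetylgalactosamine of a chondroitin chain, and HAS1, a hyaluronan synthase. Over all 9720 genes tested the same way, 3.83% passed, 1.26% higher and 2.57% lower. The 6.67% of the glycosaminoglycan genes rests on these 2 genes, and neither passed after adjustment over all 22136 probesets (adjusted p = 0.9998). After adjustment 0 of the 9720 genes passed, against 372 at an unadjusted p under 0.05. The other 28 genes did not pass. The log2 fold changes, low minus high RFI, ran between -0.43 and 0.22 with a median of -0.04, against -0.01 over all genes. They were below 0 for 19 genes and above 0 for 11, while 52.5% of all genes were below 0.

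**Figure D1:**
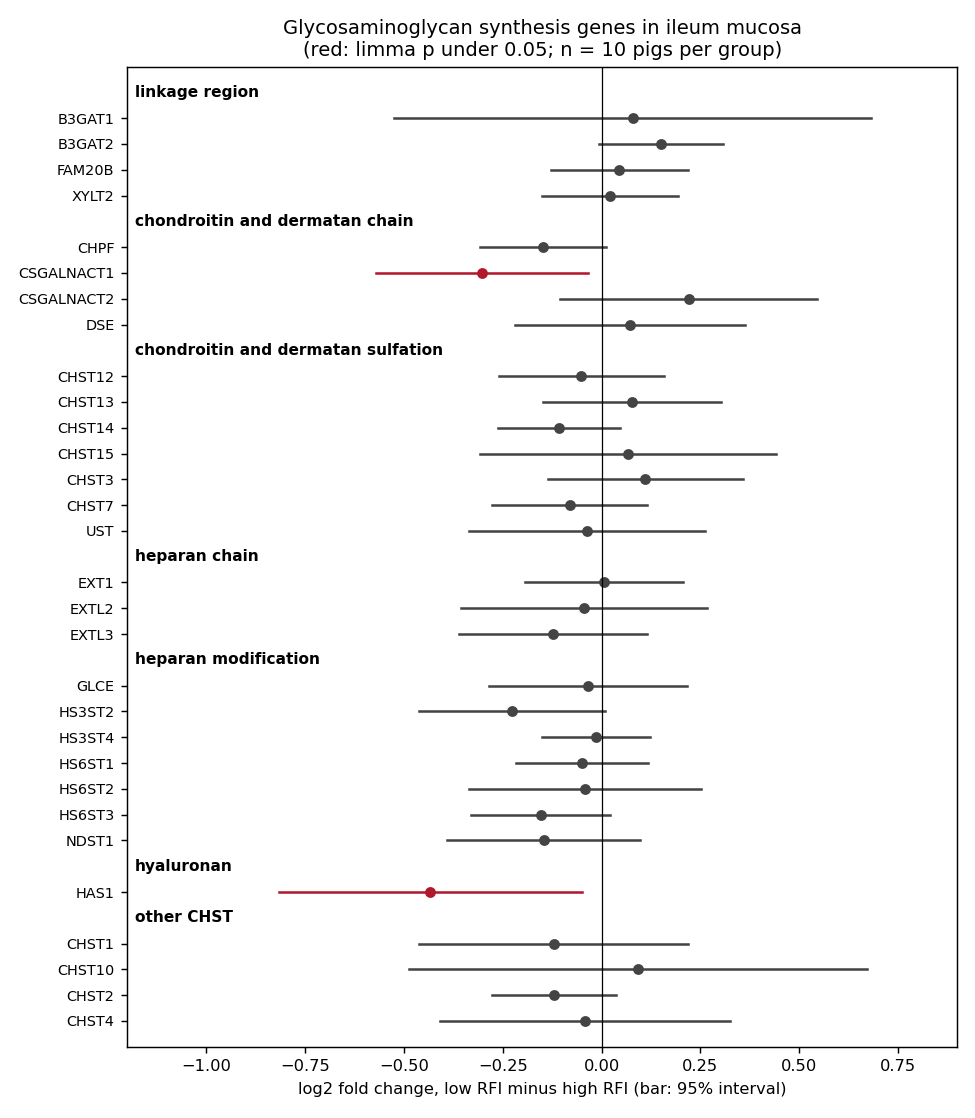
Log2 fold change (x axis, low RFI minus high RFI) of the 30 tested genes, grouped by step of synthesis, with 95% intervals of the limma fit and n = 10 pigs per group. The intervals of CSGALNACT1 (-0.57 to -0.03) and HAS1 (-0.82 to -0.05) lie below 0, and those of the other 28 genes include 0.

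CSGALNACT1 lies on chromosome 17 from 12145141 to 12498777 (Sscrofa11.1). Its lowest, median and highest values were 3.94, 4.67 and 5.39 in low RFI pigs, against 4.53, 5.02 and 5.40 in high RFI pigs. The groups overlapped, and only the 2 low RFI pigs of sow 1406, at 3.94 in the female and 4.42 in the male, lay below every high RFI pig. The mean was 4.72 ± 0.41 in low RFI and 5.02 ± 0.27 in high RFI pigs (SD, n = 10 each), a log2 fold change of -0.30 (SE 0.128, limma p = 0.0293).

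By litter, the 2 low RFI pigs averaged less CSGALNACT1 than the 2 high RFI pigs in 5 of 5 litters, by very unequal amounts. The difference was -0.56 for sow 1406 and -0.53 for sow 1411, but -0.17 for sow 1410, -0.16 for sow 1417 and -0.09 for sow 1435. Among the pairs, 8 of 10 were lower in the low RFI pig. The exceptions were the males of sow 1410, at 5.39 in the low and 5.03 in the high RFI pig, and the females of sow 1435, at 5.21 in the low and 4.73 in the high RFI pig. The difference was -0.16 in males and -0.44 in females, without a detectable interaction (p = 0.301). An exact two-sided permutation of RFI within the 10 pairs (1024 assignments) gave p = 0.0879. Without litter 1406 limma gave -0.24 (p = 0.110) and without litter 1411 -0.24 (p = 0.119), so that the call rested on each of these litters. With the pair as block in place of the sow the p was 0.0504.

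HAS1 lies on chromosome 6 from 58303274 to 58313486. Its lowest, median and highest values were 3.61, 4.40 and 5.57 in low RFI pigs, against 4.56, 4.92 and 5.27 in high RFI pigs. The low RFI pigs spread far wider: those at 3.61, 3.84, 4.07, 4.11 and 4.11 lay below every high RFI pig, and those at 5.28 and 5.57 above every one. The mean was 4.49 ± 0.64 in low RFI and 4.92 ± 0.17 in high RFI pigs (SD, n = 10 each), a log2 fold change of -0.43 (SE 0.183, limma p = 0.0286). The exact permutation within pairs gave p = 0.0684.

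The difference in HAS1 was -0.63 in litter 1406, -0.64 in litter 1410, -0.78 in litter 1417 and -0.38 in litter 1435, but 0.26 in litter 1411. The call was lost without litter 1406 (p = 0.0993), 1410 (p = 0.0803) or 1417 (p = 0.0946). The array holds another HAS1 probeset of nearly the same mean. There the low RFI pigs averaged 4.65 ± 0.09 and the high RFI pigs 4.75 ± 0.21 (SD, n = 10 each), a log2 fold change of -0.09 (SE 0.0782, limma p = 0.250). The wide spread of the low RFI pigs was thus seen in 1 of the 2 probesets, and where in the transcript the probes lie is not given in the sources used here.

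**Figure D2:**
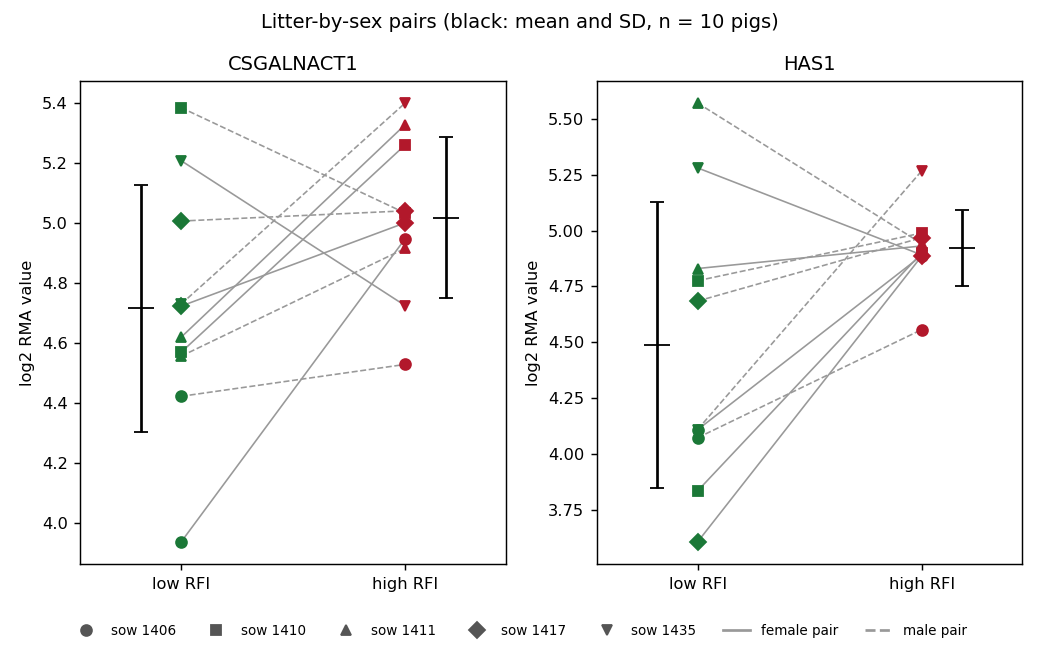
Log2 RMA values (y axis) of CSGALNACT1 and HAS1 in low RFI pigs (left) and high RFI pigs (right), with lines joining littermates of the same sex, symbols for the sow and bars for mean and SD (n = 10). In both genes 8 of 10 lines rise toward the high RFI pig, and the low RFI pigs of HAS1 spread from 3.61 to 5.57.

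Markers of stromal cells were set beside these differences. The smooth muscle markers had a mean level of 5.35 (range over pigs 4.87 to 6.35) in low RFI and 5.41 (4.99 to 6.48) in high RFI pigs, and 1 of 3 tested markers passed. This was ACTA2, smooth muscle actin, with -0.62 (p = 0.0254). The smooth muscle markers did not share a direction: DES was at 0.14 (limma p = 0.351) and MYH11 at -0.07 (p = 0.590). TAGLN, left out by the filter, was at 0.31 without it (p = 0.286). The fibroblast and matrix markers ranged from 4.87 to 7.12 in low RFI and from 4.64 to 7.28 in high RFI pigs. Both tested ones passed, in opposite directions, COL1A1 with 0.39 (p = 0.0166) and COL6A3 with -0.58 (p = 0.0133). The others were left out by the filter. Without it COL1A2, COL3A1, PDGFRA, LUM and DCN were at 0.03, 0.02, -0.02, 0.12 and 0.07 (limma p = 0.726 to 0.948). With the fibroblast score as a covariate CSGALNACT1 was at -0.31 (p = 0.0184) and HAS1 at -0.45 (p = 0.0216). With the smooth muscle score the values were -0.32 (p = 0.0228) for CSGALNACT1 and -0.45 (p = 0.0235) for HAS1.

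By step of synthesis, the 4 tested genes of the linkage region group all had fold changes above 0 under each of the 3 scalings, with a median of 0.06 in the deposited scale. XYLT2, the xylosyltransferase that starts the chain, was at 0.02, and FAM20B, the kinase that phosphorylates this xylose, at 0.04. B3GAT1, at 0.08, and B3GAT2 were placed in this group by family. These glucuronyltransferases are known for the HNK-1 sugar epitope, so that the group's median does not stand for linkage enzymes alone. The nearest to the limit was B3GAT2. B3GAT2 ranged from 4.42 over a median of 4.73 to 5.02 in low RFI pigs and from 4.42 over 4.53 to 4.91 in high RFI pigs. In 8 of 10 pairs the low RFI pig had the higher value (0.15, SE 0.0749, limma p = 0.0609), and B3GAT2 passed after renewed quantile normalization (0.17, p = 0.0289) or centring of the arrays (0.16, p = 0.0366). It did not pass in 13 of 15 alternative settings (limma p up to 0.101) or in 21 of 25 fits that left out a litter or pig.

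Of the other enzymes of the chondroitin and dermatan chain, CHPF, the polymerizing factor that helps to extend it, was lower in the low RFI pig of 9 of 10 pairs. Its levels lay between 6.24 and 6.65 in low RFI pigs and between 6.31 and 6.82 in high RFI pigs. The fold change of -0.15 (SE 0.0759) missed the limit (limma p = 0.0670), and CHPF passed after renewed quantile normalization. CSGALNACT2, which shares the reaction of CSGALNACT1, was at 0.22 (p = 0.172), on the other side of 0. DSE, the epimerase that turns chondroitin into dermatan, was at 0.07 (p = 0.612).

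Among the 7 genes of chondroitin and dermatan sulfation, none passed, and 4 had a fold change below 0. CHST14, the 4-O-sulfotransferase of dermatan sulfate, had the smallest p. It lay between 5.32 and 5.64 (median 5.44) in low RFI pigs and between 5.34 and 5.87 (median 5.55) in high RFI pigs, with -0.11 (SE 0.0739, p = 0.160). The 6-O-sulfotransferases CHST3 and CHST7 were at 0.11 and -0.08, and the 4-O-sulfotransferases CHST12 and CHST13 at -0.05 and 0.08. CHST15, which adds a second sulfate to N-acetylgalactosamine, and the uronyl 2-O-sulfotransferase UST were at 0.07 and -0.04.

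For the heparan sulfate chain, EXT1, a subunit of the polymerase, was at 0.01 (95% interval -0.19 to 0.21). EXTL3, which adds the first N-acetylglucosamine, was at -0.12 (SE 0.114, p = 0.291), but its other 2 probesets lay on the other side of 0, with 0.08 and 0.30 (p = 0.0753). For EXTL3 the pigs ranged from 5.37 to 6.23 (median 6.03) in low RFI and from 5.78 to 6.77 (median 5.998) in high RFI. EXTL2, a related transferase that can act on the linkage region, was at -0.04.

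All 7 tested genes of heparan sulfate modification had a fold change below 0 in their highest-mean probeset, with a median of -0.05, and none passed. After centring each array on its median, 6 of the 7 were below 0. HS3ST2, a 3-O-sulfotransferase, had the smallest p. It ranged from 4.46 over a median of 4.93 to 5.38 in low RFI pigs, against 4.83 over 5.13 to 5.64 in high RFI pigs, and 8 of 10 pairs had the lower value in the low RFI pig (-0.23, SE 0.112, limma p = 0.0590). With the pair as block HS3ST2 passed (p = 0.0231), but it did not pass in 12 of 15 alternative settings (limma p up to 0.0808). HS6ST3, a 6-O-sulfotransferase, was lower in 9 of 10 pairs (-0.15, p = 0.0820). NDST1, which removes the acetyl group and sulfates the nitrogen at the start of modification, was also at -0.15 (p = 0.226). The other 4, HS6ST1, HS6ST2, HS3ST4 and the C5 epimerase GLCE, lay between -0.05 and -0.01. The common sign depended on the probeset: another probeset of HS3ST4 was at 0.16 and another of NDST1 at 0.01. The further probesets of GLCE, HS6ST2 and HS6ST3 past the filter lay below 0, as did the remaining one of NDST1 (-0.03).

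The remaining sulfotransferases carry the CHST name but act mainly on glycans other than chondroitin, dermatan and heparan sulfate. CHST2, which sulfates N-acetylglucosamine in ligands of L-selectin, lay between 6.74 and 7.16 (median 7.02) in low RFI pigs and between 6.95 and 7.33 (median 7.10) in high RFI pigs, with -0.12 (SE 0.0751, limma p = 0.125). CHST4 and CHST1, known for L-selectin ligands and keratan sulfate, were at -0.04 and -0.12, and CHST10, the HNK-1 sulfotransferase, was at 0.09.

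In 6 of the 30 genes (20%) the low RFI pigs averaged less than the high RFI pigs in 5 of 5 litters, and in 0 genes more in 5 of 5. Over all 9720 genes, 3.78% were lower and 2.38% higher in every litter. The 6 genes were CSGALNACT1, CHPF, HS3ST2, HS6ST1, HS6ST3 and CHST2. This count was chosen after the values were seen and has no test, and it includes differences as small as -0.01, those of HS6ST1 in litters 1406 and 1410. It was 5 after renewed quantile normalization and 4 after centring each array on its median. After renewed quantile normalization 1 gene, B3GAT2, was higher in 5 of 5 litters. Of the genes that were lower, CSGALNACT1, CHPF, HS3ST2 and CHST2 were counted under each of the 3 scalings.

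Of the 32 genes, 12 had more than 1 probeset with values. Of their 20 other probesets 18 were past the filter, and none passed between RFI groups or between litters, against 4.03% and 12.9% of all probesets. The sign was that of the highest-mean probeset in 9 and the opposite in 11, so that for genes with small fold changes the sign depended on the probeset.

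Between the 5 litters, 5 of 30 genes (16.7%) passed at an unadjusted p under 0.05 of limma's F test, against 13.6% of all 9720 genes, a share near the background. The smallest adjusted p was 0.242, whereas 0.0823% of all genes passed after adjustment. The genes were DSE, FAM20B, EXT1, HS6ST2 and UST. The litter accounted for a median of 26.4% of the variance of a gene (3.65% to 59.0%), against 24.6% over all genes. For the RFI group the median was 2.34%, against 2.12% over all genes, with a maximum of 26.3% in CHPF. The litter share is taken over more groups than the RFI share, which by itself raises it, and how much of the gap this makes up was not tested. The shares of litter and RFI group can thus be compared with all genes but not with each other.

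DSE (chromosome 1, 81996894 to 82063847) was high in litter 1406. Its low RFI female was at 4.87, its low RFI male at 4.52, its high RFI male at 4.85 and its high RFI female at 3.98, whereas no other pig exceeded 4.29. The litter means lay between 4.56 for sow 1406 and 3.76 for sow 1417 (1.73-fold, p = 0.0107), and without litter 1406 the p was 0.917. UST, also on chromosome 1, had its highest mean in the same litter, 4.48 ± 0.16, and its lowest, 3.77 ± 0.37, in litter 1410 (SD, n = 4 each). The limma F test gave p = 0.0410. The UST pigs of litter 1406 lay between 4.31 and 4.68, within the range of the other litters, which reached 4.50, except for the high RFI female at 4.68 and the low RFI male at 4.53.

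FAM20B on chromosome 9 was highest in litter 1417, where its 4 pigs lay close together between 8.24 and 8.33. Its lowest mean was 7.87 in litter 1410 (1.33-fold, p = 0.0191), and litter 1435 followed 1417 with 8.06 to 8.29. FAM20B had the largest litter share of variance of the 30 genes, 59.0%. EXT1 on chromosome 4 averaged 10.74 in litter 1435, where the high RFI female reached 11.16, and 10.24 in litter 1406 (p = 0.0266). HS6ST2 on chromosome X was low in litter 1411, with 6.90 and 6.56 in the low RFI pigs and 6.14 and 6.54 in the high RFI pigs, a mean of 6.53 against at most 7.20 in litter 1410 (p = 0.0372). Without litter 1411 the p for HS6ST2 was 0.988.

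**Figure D3:**
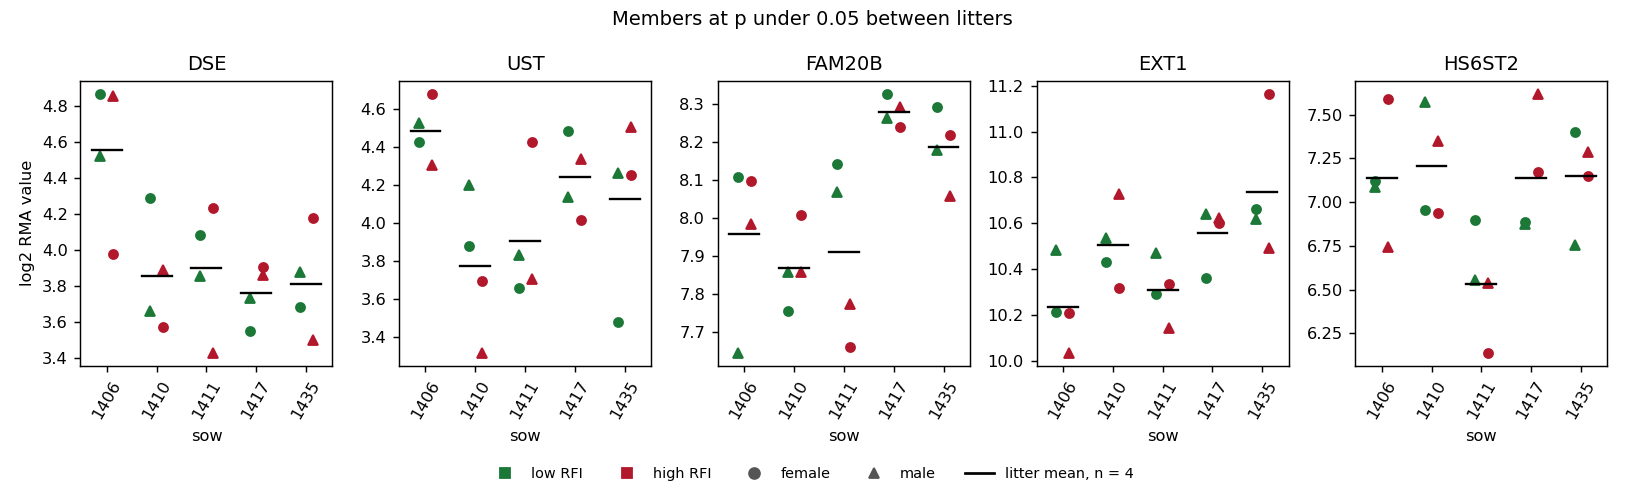
Log2 RMA values (y axis, own scale for each gene) of the 4 pigs of each sow (x axis) for the 5 genes at p under 0.05 between litters, with low RFI in green, high RFI in red, circles for females and triangles for males, and bars for litter means (n = 4). DSE stands high in litter 1406 except for the high RFI female at 3.98, and HS6ST2 stands low in litter 1411.

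Some stromal markers differed between litters. Of the tested ones, COL1A1 (0.00125) and DES (0.00141) passed limma's F test. COL6A3 (0.0706), MYH11 (0.252) and ACTA2 (0.790) did not. Without the filter, COL1A2, COL3A1, PDGFRA, LUM, DCN and TAGLN were at p = 0.000192 to 0.00720. The score of a marker list is the mean of its markers' log2 deviations from all pigs. That of fibroblasts and matrix leaves out LUM and DCN because they are also on the list of core proteins. It was 0.94 in litter 1406, 0.29 in 1410, 0.10 in 1411, -0.66 in 1417 and -0.67 in 1435. That of smooth muscle was 0.60 in litter 1406, 0.00 in 1410, -0.05 in 1411, -0.29 in 1417 and -0.25 in 1435. That of the endothelium was highest in litter 1406 (0.46) and lowest in 1417 (-0.29), and 3 of 3 tested markers passed between litters. The scores themselves were not tested. That of the epithelium, over VIL1, KRT8, KRT20 and FABP2, moved little as a mean, between -0.13 in 1406 and 0.06 in 1417. Its markers were not all steady. KRT8 passed limma's F test between litters (p = 0.0408), and VIL1 (0.917) and KRT20 (0.438) did not. FABP2, left out by the filter, was at 0.0331 without it. With the smooth muscle score as a covariate, the p of DSE between litters was 0.535, that of EXT1 0.102 and that of UST 0.0562, while FAM20B (0.0487) and HS6ST2 (0.0110) stayed under 0.05. With the fibroblast score, DSE (0.0271), EXT1 (0.0431) and HS6ST2 (0.0249) stayed under 0.05, and FAM20B (0.209) and UST (0.0524) did not.

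No litter was high or low throughout. Litter 1417 had the lowest mean in 10 of the 30 genes and the highest in 4. Litter 1410 had the highest mean in 8 genes and the lowest in 6, and litter 1406 in 7 and 5.

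**Figure D4:**
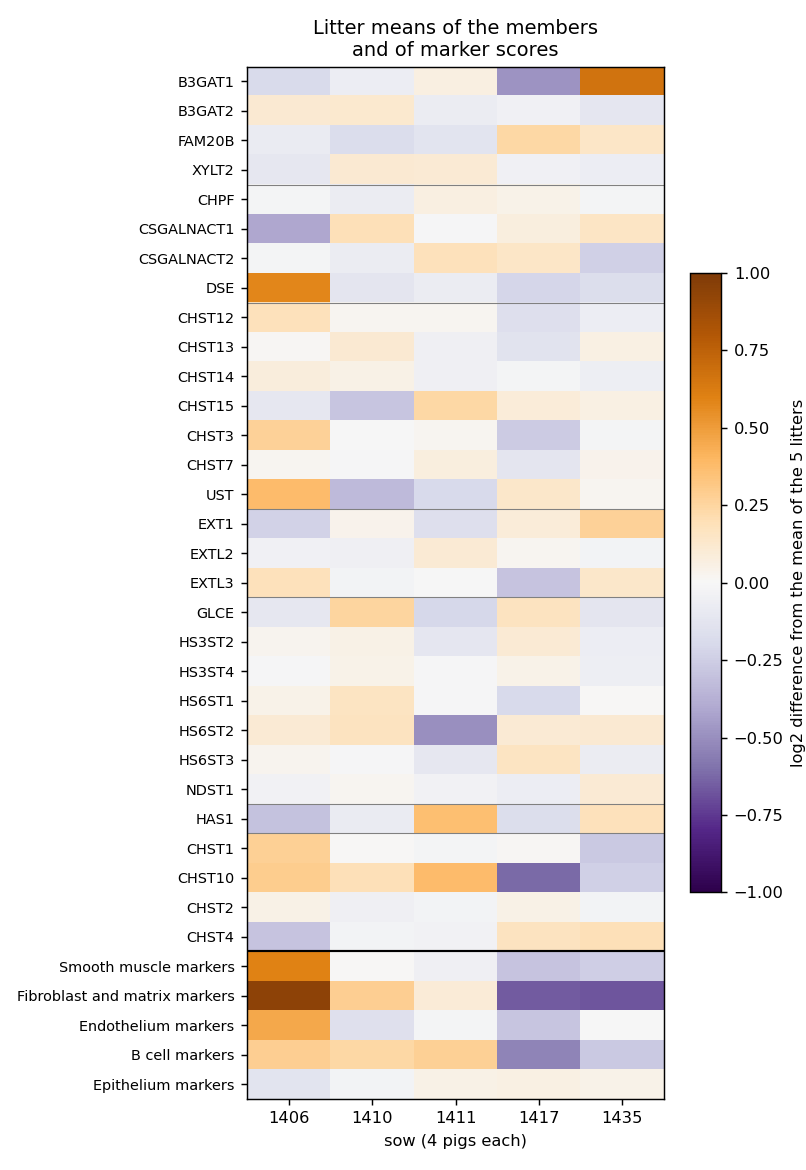
Litter means of the 30 genes (rows, in order of the steps of synthesis) and of 5 marker scores (bottom rows) for the 5 sows (columns), as log2 difference from the mean of the 5 litters (color). The fibroblast score is 0.94 in litter 1406 and -0.67 in litter 1435, DSE and UST share the high value of litter 1406, and the columns of the 30 genes hold both colors in every litter.

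For 1 of the 30 genes the RFI difference depended on sex at p under 0.05, against 5.68% of all genes. CSGALNACT2 (chromosome 14, 61372289 to 61415563) averaged 6.83 ± 0.19 in low RFI males and 6.30 ± 0.38 in high RFI males, and was higher in the low RFI male of 4 of 5 pairs. In females it averaged 6.53 ± 0.33 in low RFI and 6.62 ± 0.44 in high RFI pigs (SD, n = 5 each), and was lower in the low RFI female of 3 of 5 pairs. The difference was 0.53 in males and -0.09 in females, an interaction of 0.62 (limma p = 0.0471, adjusted p = 0.824). The means of its 3 probesets gave 0.29 (p = 0.150). Males and females differed in 0 of the 30 genes, against 7.24% of all genes, with a smallest unadjusted limma p of 0.106.

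**Figure D5:**
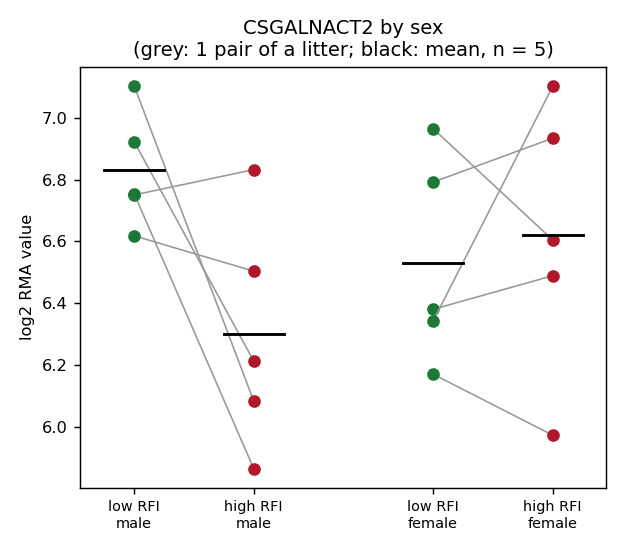
Log2 RMA values of CSGALNACT2 (y axis) in low and high RFI males and low and high RFI females (x axis), with lines joining the pigs of a litter and bars for means (n = 5). The male lines fall toward the high RFI pig in 4 of 5 litters, whereas the female lines run both ways.

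The neighbours of the pathway were described in the same way, beside the 3.83% of all genes that passed between RFI groups, 1.26% higher and 2.57% lower. Of 19 tested genes of a list of proteoglycan core proteins, 1 passed, lower in low RFI pigs, and the median was -0.04. Whether each protein of the list carries such chains was not examined. This was TGFBR3, the proteoglycan betaglycan, which averaged 3.70 ± 0.25 in low RFI and 3.98 ± 0.35 in high RFI pigs (SD, n = 10 each, log2 fold change -0.29, SE 0.122, limma p = 0.0313). Of 10 genes that supply activated sugars and sulfate, none passed (median 0.00). Of 11 genes of breakdown and editing, 1 was higher and 0 lower (median -0.01). This was SULF2, which removes 6-O-sulfates from heparan sulfate outside the cell. SULF2 averaged 5.29 ± 0.63 in low RFI and 4.74 ± 0.41 in high RFI pigs with a log2 fold change of 0.55 (SE 0.225, limma p = 0.0244) and the higher value in the low RFI pig of 8 of 10 pairs.

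Between litters, where 13.6% of all genes passed, 6 of the 19 core proteins did, with the smallest p in the chondroitin sulfate proteoglycan VCAN (0.000636), the glypican GPC4 (0.000687), PRELP (0.00293) and the syndecan SDC2 (0.00718), followed by BGN (0.00953) and SDC4 (0.0386). The score of all 26 core proteins with values, again a mean deviation, was highest in litter 1406 (0.32) and lowest in litter 1417 (-0.20), and litter 1406 was also highest in the fibroblast score. Of the supply genes 2 of 10 passed, UGDH, which makes UDP-glucuronic acid (0.000944), and GFPT1, which opens the hexosamine route (0.0324). Of the breakdown genes 4 of 11 passed, the hyaluronidase HYAL1 (0.00311) and the lysosomal enzymes HEXA (0.0210), GLB1 (0.0278) and GUSB (0.0457). None of these passed after adjustment over all probesets.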

How the data were processed

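Per the study's methods, the authors reassigned probes on Sscrofa11.1, checked the arrays and summarised them by RMA in affy. Deposited values were log2. The submitters' processing notes name GCOS 1.1.1. Of 47845 rows, 25092 held values. As in the study's methods, probesets below the 5% quantile of the mean or above the 95% quantile of the SD (0.825 in low RFI, 0.808 in high RFI) were left out, read as in at least 1 group, which removed 2956 and left 22136.

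Groups came from the feed efficiency label, high efficiency being low RFI. Values were computed with R 4.3.3 and limma 3.58.1 (lmFit, eBayes, RFI and sow as fixed terms, 14 residual and 4.42 prior degrees of freedom) and plotted with matplotlib 3.10.9. The limit was an unadjusted p under 0.05, beside Benjamini-Hochberg adjustment over all probesets. Slaughter batch is not in the labels and was left out. Symbols came from the platform annotation and coordinates from RefSeq on Sscrofa11.1. The fit was tested on simulated data.

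Named with full values were CSGALNACT1, genes at p under 0.05 in any of the RFI, litter and interaction tests, and the gene of smallest RFI p of each step. Of the other lists, genes at p under 0.05 were named (up to 6). CHPF, HS6ST3 and the genes lower in 5 of 5 litters were named after their values were seen. Genes and lists were chosen with earlier results of these data known. Pairs came from litter and sex in the labels. Beside the sow, the 2 pigs of a pair had a consensus correlation of -0.00195, and pigs of a sow had 0.0514. Alternatives covered covariates, blocks, filters, eBayes options, array weights, scaling, marker scores, probesets of a gene, and leaving out each litter or pig. The exact permutations, the other HAS1 probeset and the sign counts by scaling were added after seeing the data.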

Additional observations from a re-analysis of the deposited data

Results flagged for a closer look

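Single pigs stood apart from their RFI group in 4 of 64 groups of 10, by a gap to the next pig of a large part of the group's range; chance gives about 5% of such groups. All were high RFI pigs. In B3GAT2 the female of sow 1410 was high at 4.91, with the next at 4.63 (gap 0.5676 of the range). In CHST4 the male of sow 1406 was low at 8.11, with the next at 8.85 (0.495). The same pig was high in EXTL3 at 6.77, with the next at 6.23 (0.546). In HS6ST1 the male of sow 1417 was low at 7.30, with the next at 7.54 (0.476).

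Within litters, 3 of 40 groups of 4 pigs held such a pig, all low RFI. The female of sow 1417 was low both in CSGALNACT1 at 4.72, with the next at 5.001 (0.874), and in EXT1 at 10.36, with the next at 10.60 (0.861). In HAS1 the male of sow 1411 was high at 5.57, with the next at 4.94 (0.849), and this litter was the exception to the lower HAS1 of low RFI pigs.

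The RFI difference of CSGALNACT2 differed between males and females by 0.62 (limma p = 0.0471), but passed in only 7 of 25 fits that each left out a litter or a pig.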

How the results depend on the processing

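Across 15 alternative settings, the number of genes at p under 0.05 between RFI groups was 2 or 3 except with array weights (1, HAS1) and renewed quantile normalization (4, with B3GAT2 and CHPF added). It was 0 to 4 when a litter or pig was left out. CSGALNACT1 stayed below 0 throughout and lost the call without the sow term (-0.30, p = 0.0534), with the litter-by-sex pair as replicate block (-0.30, p = 0.0504), with array weights (-0.24, p = 0.0759) and in the exact permutation (-0.30, p = 0.0879). It ranged from -0.37 to -0.24 when a litter or pig was left out, with 9 of 25 calls lost. Those were litters 1406 and 1411 (p = 0.110 and 0.119) and 7 single pigs (p = 0.0507 to 0.0658). HAS1 lost the call in the exact permutation and in its other probeset, and in 8 of 25 fits without a litter or pig (-0.61 to -0.33), among them litters 1406, 1410 and 1417 (p = 0.0993, 0.0803 and 0.0946). With the replicate block the 2 genes called were HAS1 and HS3ST2. EXTL3 turned to 0.09 (p = 0.365) with the mean of its probesets, which include those above 0.

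The number of genes at p under 0.05 between litters was 3 with the fibroblast score and 2 with the smooth muscle score as covariate, and 2 to 7 when a litter or pig was left out. It was 2 without litter 1406. FAM20B lost the call without litter 1417 (p = 0.160) and EXT1 without litter 1406 (0.0869) or 1435 (0.0886). HS6ST2 lost it with the mean of its probesets (0.630) and UST in 6 of 12 settings (up to 0.107). The interaction count was 0 with the mean of probesets and 0 to 4 when a litter or pig was left out. The interaction of CSGALNACT2 lost the call in 3 of 5 settings (limma p up to 0.150). Without the filter its limma p was 0.0528, while that of HS2ST1, which the filter leaves out, was 0.0462. The sex count was 0 in every setting and 0 to 2 when a litter or pig was left out. The causes were not tested.

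With 10 pigs per group and the median standard error of the 9720 genes, an estimated log2 fold change of 0.23 just reaches p under 0.05. Genes of smaller standard error reach it with a smaller estimate. A true difference of that size would often be missed, so the value is not a limit of reliable detection. The number of arrays limits the precision.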
